A study of Mus musculus with 4 samples.

Results

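The C-proximal TRAJ segments are the joining segments of the mouse TCRα locus that lie closest to the constant region gene Trac. They were defined here by their number, as clones whose first listed J segment was numbered 13 or less. Of 44 TRAJ segments found in the libraries 9 met this rule, namely TRAJ2, TRAJ4, TRAJ5, TRAJ6, TRAJ7, TRAJ9, TRAJ11, TRAJ12 and TRAJ13. They carried 29731 of 189388 TCRα clones, with 6027 and 7515 for the WT libraries and 7346 and 8843 for the Tet2/3 DKO libraries. RefSeq (GRCm38.p6) annotates 12 segments with such a number, of which 2 are pseudogenes. All 12 lie within 13.1 kb.

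Total CD4 T cells were isolated from the spleen of 2 WT and 2 Tet2/3 DKO mice with an average age of 25 days, and TCR SMART-seq captured their TCR transcripts from the 5' end. The sorted cells were live, CD4+, CD25- and TCRβ+ and did not bind the aGalCer-loaded CD1d tetramer, a gate that leaves out iNKT cells and CD25 expressing cells. The Tet2/3 DKO mice carry a germline deletion of Tet2 and a Tet3 allele that is deleted by CD4-cre from the double positive stage of thymic development. TET2 and TET3 are enzymes that oxidise 5-methylcytosine. A library held 172506 to 287799 TCRα reads and 39463 to 53844 clones, and 25.8% to 26.8% of clones had 1 read. The clone tables hold no other genes, so the labelled cell type was not checked against markers. Reads carry no molecular identifiers, so a read count is not a count of cells, and more cells of a clone cannot be told apart from more TCRα RNA per cell. Confidence intervals below cover counting error only.

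The TCRα chain is assembled in double positive thymocytes by joining one V segment to one J segment. The locus can rearrange again on the same allele, and each new round uses a V segment farther upstream and a J segment farther downstream than the round before. The J segments are numbered from the Trac side, so low numbers lie at the downstream end that successive rounds approach. The join forms the third complementarity determining region (CDR3), the loop that contacts the peptide. Enzymes trim the segment ends and terminal deoxynucleotidyl transferase inserts bases between them, and a join that shifts the reading frame gives an out-of-frame transcript that encodes no receptor.

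The J segments themselves are shown first, because their length and sequence set most of each CDR3. Each line gives the sequence from the first base of the untrimmed segment to the end of framework region 4, as found most often among clones without trimming of the J end, and capitals mark the part inside the CDR3. In GRCm38.p6 Traj13 lies at chr14:54205741-54205797 and Traj2 at chr14:54217836-54217901, which is 14.7 kb and 2.62 kb upstream of Trac.
TRAJ2: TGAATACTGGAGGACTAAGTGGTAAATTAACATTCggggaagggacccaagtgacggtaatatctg
TRAJ4: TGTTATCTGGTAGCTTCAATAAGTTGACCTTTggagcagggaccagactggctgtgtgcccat
TRAJ5: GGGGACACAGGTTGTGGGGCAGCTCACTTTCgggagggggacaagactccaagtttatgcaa
TRAJ6: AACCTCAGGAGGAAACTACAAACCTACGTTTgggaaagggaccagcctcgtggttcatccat
TRAJ7: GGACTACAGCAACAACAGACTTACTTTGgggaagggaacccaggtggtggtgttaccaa
TRAJ9: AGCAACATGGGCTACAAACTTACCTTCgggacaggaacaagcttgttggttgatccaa
TRAJ11: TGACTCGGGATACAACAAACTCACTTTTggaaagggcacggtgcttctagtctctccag
TRAJ12: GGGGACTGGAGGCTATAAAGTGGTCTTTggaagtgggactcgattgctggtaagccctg
TRAJ13: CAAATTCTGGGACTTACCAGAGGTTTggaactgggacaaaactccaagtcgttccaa

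The untrimmed CDR3 part ranged from 26 bases in TRAJ13 and 27 in TRAJ9 to 35 in TRAJ2. The last codon of the CDR3 encodes phenylalanine in most TRAJ segments and starts a conserved motif that holds the end of the loop. It was TTC or TTT in 8 of the 9 segments, and TTG, a leucine codon, in TRAJ7.

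The most abundant C-proximal clones are shown as their CDR3, with the bases that came from the J segment in capitals and those from the V segment or inserted in lower case. The first clone led both WT libraries and ranked second in Tet2/3 DKO 1, the next 5 are the others that ranked first or second in a library, and the last 2 are further chains found in all 4 libraries.
TRAV14D-1 with TRAJ13: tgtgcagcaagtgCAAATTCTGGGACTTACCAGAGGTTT
TRAV6D-7 with TRAJ12: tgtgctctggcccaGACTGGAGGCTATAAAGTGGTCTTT
TRAV7-2 with TRAJ13: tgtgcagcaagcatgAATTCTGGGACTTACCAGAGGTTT
TRAV7-2 with TRAJ6: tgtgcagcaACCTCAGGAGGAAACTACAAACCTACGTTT
TRAV15-1-DV6-1 with TRAJ13: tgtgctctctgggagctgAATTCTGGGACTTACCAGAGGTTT
TRAV6N-6 with TRAJ12: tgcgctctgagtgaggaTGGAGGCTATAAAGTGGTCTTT
TRAV14N-3 with TRAJ7: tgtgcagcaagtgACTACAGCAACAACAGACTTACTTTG
TRAV7-2 with TRAJ9: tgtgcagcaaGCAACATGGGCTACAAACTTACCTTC

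Usage of the C-proximal segments was compared between WT and Tet2/3 DKO cells first by reads. They took 14.7% and 15.4% of TCRα reads for the WT libraries and 15.2% and 15.2% for the Tet2/3 DKO libraries. The 95% Wilson intervals spanned 14.6% to 14.9% in WT 1, 15.3% to 15.6% in WT 2, 15.05% to 15.37% in Tet2/3 DKO 1 and 15.04% to 15.30% in Tet2/3 DKO 2. These intervals take each read as an independent draw, although reads come in clones, so they are too narrow. By their shares both Tet2/3 DKO libraries lay between the WT libraries. The means were 15.1% ± 0.474 (SD, n = 2) and 15.2% ± 0.0259 (SD, n = 2), a difference of 0.117 percentage points that was smaller than the spread of the WT libraries (exact two-sided permutation test, p = 1). With 2 libraries against 2 this test cannot give a p below 0.333. The difference changed direction with the libraries used, from -0.218 percentage points without WT 1 to 0.452 without WT 2.

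By clones the genotypes did not overlap. The C-proximal segments took 15.3% and 15.4% of clones for WT, against 15.5% and 16.4% for Tet2/3 DKO. The Wilson interval of Tet2/3 DKO 2, 16.1% to 16.7%, lay above those of the other libraries, of which the highest upper bound was 15.9%. The difference of 0.641 percentage points gave the smallest p the design allows (exact permutation test, p = 0.333). It rested largely on Tet2/3 DKO 2, since it was 0.196 percentage points without that library and 1.09 without Tet2/3 DKO 1. Among clones with at least 2 reads the genotypes overlapped and the difference was 0.489 percentage points (exact permutation test, p = 0.667). The neighbouring window TRAJ15 to TRAJ24 was also higher in both Tet2/3 DKO libraries, with 23.7% and 24.3% of clones for WT and 24.5% and 25.3% for Tet2/3 DKO, so the order of the genotypes was not particular to the C-proximal segments.

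Single segments differed widely in use within the group. TRAJ12 was the most used, with 3.51% and 3.39% of clones for WT and 3.16% and 3.52% for Tet2/3 DKO. It ranked 9 among the 43 segments with at least 10 clones. TRAJ9 followed with 2.60% and 2.76% for WT and 2.70% and 2.98% for Tet2/3 DKO, then TRAJ13 with 2.35% and 2.21% for WT and 2.24% and 2.50% for Tet2/3 DKO. In these segments the genotypes overlapped. TRAJ6 held 1.86% and 1.95% of clones for WT and 1.99% and 2.10% for Tet2/3 DKO, and TRAJ7 held 1.52% and 1.59% against 1.84% and 1.55%. TRAJ4 held 1.45% and 1.41% for WT and 1.52% and 1.55% for Tet2/3 DKO, and TRAJ11 1.02% and 1.01% against 1.08% and 1.13%. The Tet2/3 DKO libraries lay above the WT libraries in TRAJ4, TRAJ6 and TRAJ11. TRAJ2, with 0.507% and 0.586% for WT and 0.543% and 0.663% for Tet2/3 DKO, and TRAJ5, with 0.454% and 0.492% against 0.461% and 0.431%, ranked 42 and 43, the last places. The first segment outside the rule, TRAJ15, held 3.47% and 3.49% of clones for WT and 3.50% and 3.81% for Tet2/3 DKO.

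The genotypes did not overlap in share of clones for 3 of the 9 C-proximal segments, against 55.8% of the 43 TRAJ segments in either direction and 34.9% with Tet2/3 DKO higher. In share of reads 0 of the 9 separated, against 23.3% of the 43 in either direction and 14% with Tet2/3 DKO higher. With edgeR's quasi-likelihood test none of the 9 segments was called by clones, where 0% of the 43 segments were called and DESeq2 called 0. Of the 43 segments 5 had an unadjusted edgeR p under 0.05, and none of these was among the 9. By reads none of the 9 was called either, where 4.65% of the 43 were called and DESeq2 called 0. The largest edgeR log2 differences by clones, with Tet2/3 DKO over WT, were 0.14 ± 0.13 (SE) for TRAJ2 (adjusted p = 0.534) and 0.12 ± 0.04 (SE) for TRAJ11 (adjusted p = 0.348). Calls appeared when a Tet2/3 DKO library was left out, which leaves 1 library that is assumed to vary as the WT libraries do. Without Tet2/3 DKO 1 edgeR called 20.9% of the 43 segments by clones, with TRAJ9 (log2 difference 0.15, adjusted p = 0.0325) and TRAJ13 (0.14, adjusted p = 0.0403) as 2 of the 9, a share near that of all segments. Without Tet2/3 DKO 2 it called 2.33%, which was TRAJ7 alone (0.24, adjusted p = 0.00581).

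**Figure D1:**
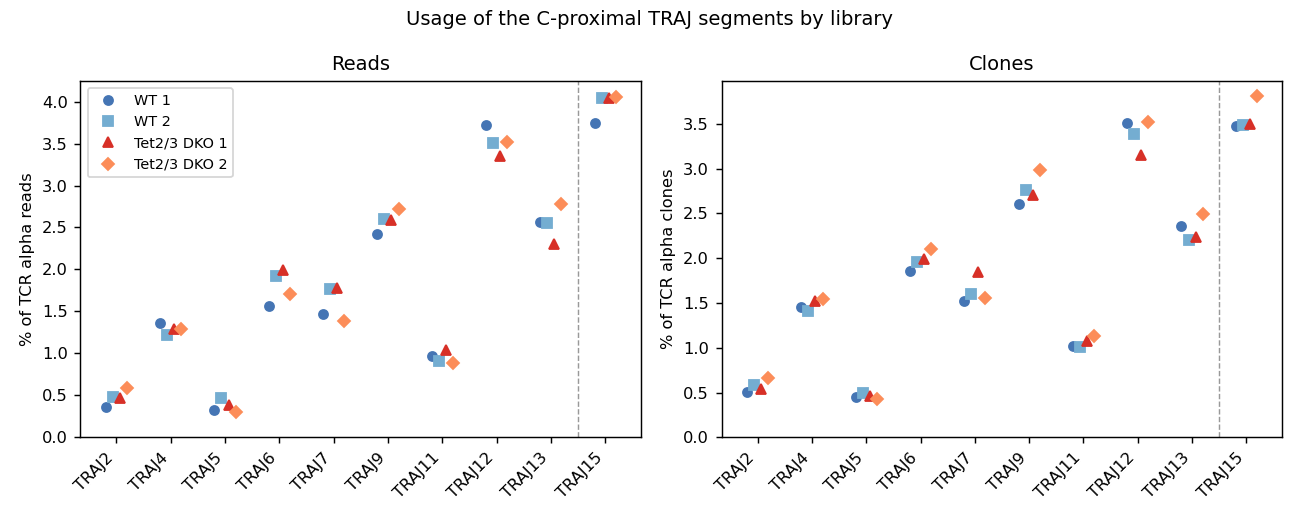
Share of TCRα reads (left, in %) and of TCRα clones (right, in %) of each C-proximal TRAJ segment and of TRAJ15, the first segment outside the rule (right of the dashed line), with 1 point per library. TRAJ12, TRAJ9 and TRAJ13 stand highest of the 9 and TRAJ2 and TRAJ5 lowest, and WT and Tet2/3 DKO points lie close together in each segment.

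Out-of-frame transcripts are not selected on the receptor they would encode, so they were examined apart from in-frame clones. The C-proximal segments took 14.1% and 14.5% of out-of-frame clones for WT and 14.9% and 15.3% for Tet2/3 DKO, from 5353 to 7202 out-of-frame clones per library. The genotypes did not overlap, and the difference was 0.790 percentage points (exact permutation test, p = 0.333, the smallest possible). TRAJ15 to TRAJ24 separated in the same way, with 22.98% and 23.99% of out-of-frame clones for WT and 24.2% and 24.6% for Tet2/3 DKO. The Wilson intervals of WT 1, 13.2% to 15.1%, and of Tet2/3 DKO 2, 14.5% to 16.2%, overlapped, and single libraries were not tested against each other. Among out-of-frame clones with at least 2 reads the difference was 0.550 percentage points (p = 0.667, exact permutation test).

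The C-proximal share was higher in in-frame than in out-of-frame clones in all 4 libraries. In-frame clones gave 15.4% and 15.5% for WT and 15.7% and 16.5% for Tet2/3 DKO. The excess over out-of-frame clones was 1.28 and 0.986 percentage points for WT and 0.812 and 1.19 for Tet2/3 DKO, 1.07 ± 0.208 (SD, n = 4) on average. An exact sign-flip test over the 4 libraries gave p = 0.125, the smallest it allows. The share was also higher in frame in all 4 libraries for TRAJ15 to TRAJ24, TRAJ37 to TRAJ47 and TRAJ48 and up, and lower only for TRAJ26 to TRAJ35, with 26.9% to 27.9% of in-frame and 30.8% to 32.6% of out-of-frame clones, so the excess was not particular to the C-proximal segments. Segments within the group differed in the direction of this excess. Of the 43 TRAJ segments edgeR called 58.1% between in-frame and out-of-frame clones, 34.9% higher and 23.3% lower in frame, and of the 9 C-proximal segments it called 3 higher and 2 lower. This fit was added after the data had been seen. TRAJ2, TRAJ4, TRAJ9 and TRAJ13 were also called with DESeq2 and whichever library was left out. TRAJ7 was not called with DESeq2 (adjusted p = 0.119), without WT 1 (edgeR adjusted p = 0.185) or without WT 2 (0.0707).

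TRAJ13, TRAJ9 and TRAJ7 were used more in frame. TRAJ13 took 2.43% and 2.28% of in-frame clones for WT and 2.34% and 2.58% for Tet2/3 DKO, against 1.64% and 1.60% of out-of-frame clones for WT and 1.63% and 1.90% for Tet2/3 DKO, a 1.42-fold excess (edgeR adjusted p = 1.67e-06). For TRAJ9 the excess was 1.33-fold (adjusted p = 1.14e-05) and for TRAJ7 1.18-fold (adjusted p = 0.0304).

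TRAJ2 and TRAJ4 were used less in frame. TRAJ4 took 1.36% and 1.36% of in-frame clones for WT and 1.43% and 1.47% for Tet2/3 DKO, against 1.94% and 1.84% of out-of-frame clones for WT and 2.15% and 1.99% for Tet2/3 DKO, 1.41-fold lower in frame (edgeR adjusted p = 1.14e-05). TRAJ2 was also lower in frame (log2 difference -0.59 ± 0.14 SE, edgeR adjusted p = 0.000783). Within TRAJ2, 24.6% and 19.6% of clones for WT and 17.9% and 17.1% for Tet2/3 DKO were out of frame, and within TRAJ13 10.03% and 9.82% for WT and 10.01% and 10.5% for Tet2/3 DKO. TRAJ5, TRAJ6, TRAJ11 and TRAJ12 were not called, with adjusted p of 0.870, 0.0553, 0.0537 and 0.234. No TRAJ segment was called for a difference of this excess between genotypes (0% of 43, 1 with an unadjusted p under 0.05, 0 by DESeq2).

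V partners were then placed along the locus by the distance of the V segment upstream of Trac. TRAV17 to TRAV23 lie 243 to 413 kb upstream of Trac, on the J side of the V array, where the TRDV segments of the TCRδ chain also lie (TRDV1 at 338 kb, and TRDV5 nearer to Trac). TRAV17 to TRAV23 accounted for 8 of 6027 C-proximal clones in WT 1, 12 of 7515 in WT 2, 12 of 7346 in Tet2/3 DKO 1 and 16 of 8843 in Tet2/3 DKO 2. These are 0.133% and 0.160% for WT and 0.163% and 0.181% for Tet2/3 DKO, with Wilson intervals from 0.0673% to 0.294% over the libraries. Among clones with any other TRAJ the same V segments took 3.86% and 3.83% for WT and 4.08% and 4.14% for Tet2/3 DKO. C-proximal minus other was -3.82 ± 0.144 (SD, n = 4) percentage points, negative in 4 of 4 libraries (exact sign-flip test, p = 0.125, the smallest possible). The groups of clones stood far apart in each library, and among out-of-frame clones alone the mean difference was -3.89 percentage points.

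The share of TRAV17 to TRAV23 rose step by step with the distance of the J segment from Trac. It was 0.242% to 0.363% of clones in TRAJ15 to TRAJ24, 0.670% to 1.00% in TRAJ26 to TRAJ35, 3.96% to 4.64% in TRAJ37 to TRAJ47 and 16.8% to 19.6% in TRAJ48 and up, over the 4 libraries. The ranges of the 4 libraries did not overlap from one window to the next. Of the 48 C-proximal clones with such a V segment, 19 carried TRAV19, 19 TRAV21/DV12, 5 TRAV17 and 5 TRAV20. TRAV18 and TRAV23 were found in 0 of 29731 C-proximal clones, which allows a share of up to 0.0101%, against 43 and 22 clones with other TRAJ segments.

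Within the group TRAJ2, the segment nearest Trac, did not have the lowest share. It was joined to TRAV17 to TRAV23 in 1, 2, 3 and 5 clones of WT 1, WT 2, Tet2/3 DKO 1 and Tet2/3 DKO 2, or 0.50% and 0.699% of its clones for WT and 1.17% and 1.40% for Tet2/3 DKO. Together these were 11 of the 48 clones, while TRAJ2 held 1100 of the 29731. In the other segments the share over all libraries lay between 0.0907% in TRAJ13 and 0.213% in TRAJ4, apart from TRAJ5 with 0 of 869 clones, which allows up to 0.345%. These counts are small and were not tested.

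The V segments farthest from the J segments were not the most favoured partners. TRAV1 and TRAV2, 1792 and 1652 kb upstream of Trac, took 0.896% and 0.865% of C-proximal clones for WT and 0.953% and 1.07% for Tet2/3 DKO. In TRAJ15 to TRAJ24 they took 1.53% to 1.87%, in TRAJ26 to TRAJ35 1.42% to 1.73%, in TRAJ37 to TRAJ47 0.378% to 0.641% and in TRAJ48 and up 0.0170% to 0.0805%. The C-proximal share thus lay below that of the next windows, TRAJ15 to TRAJ24 and TRAJ26 to TRAJ35, and above that of the windows farthest from Trac. TRAV1 took 0.846% and 0.812% of C-proximal clones for WT and 0.776% and 0.871% for Tet2/3 DKO, against 1.08% and 1.08% of other clones for WT and 1.05% and 0.871% for Tet2/3 DKO. The values were close to equal in Tet2/3 DKO 2. The log2 difference of TRAV1 was -0.29 (edgeR adjusted p = 0.00663) over all clones but 0.24 (adjusted p = 0.0304), in the opposite direction, among clones with 1 listed V segment, so its direction is not settled. TRAV2, chosen after its values were seen, stood in 3 of 53 and 4 of 68 clones with a C-proximal segment for WT and in 13 of 69 and 18 of 87 for Tet2/3 DKO, and no difference between genotypes was called for any V segment (given below).

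**Figure D2:**
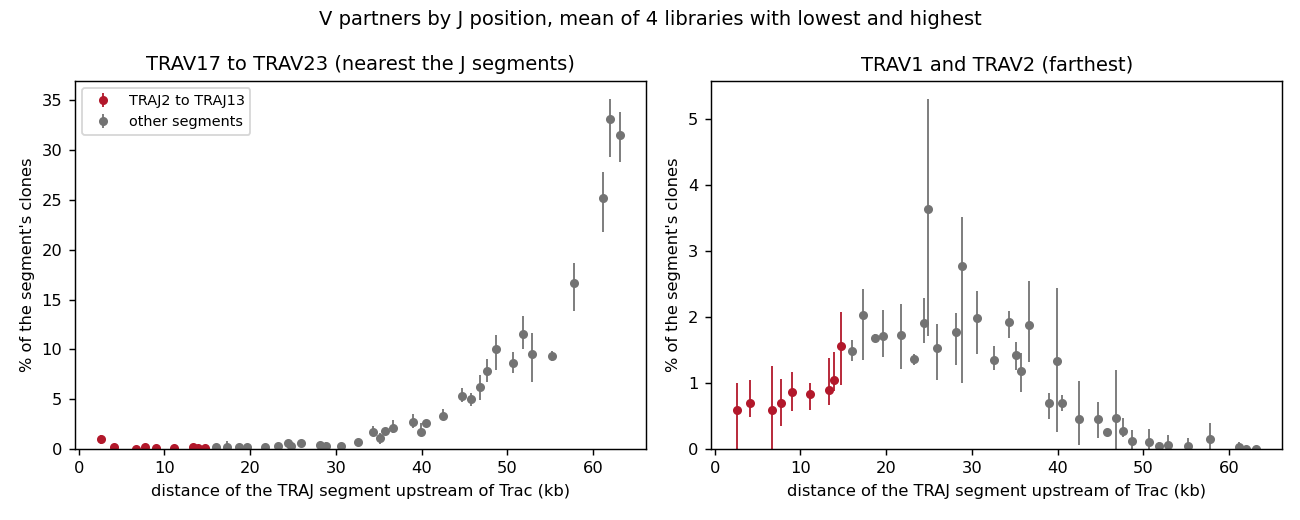
Share of the clones of each TRAJ segment (in %) that carry TRAV17 to TRAV23 (left) or TRAV1 and TRAV2 (right) against the distance of the TRAJ segment upstream of Trac in kb, for segments with at least 10 clones. Points are means of the 4 libraries and bars run from the lowest to the highest library. The 9 C-proximal segments lie at the bottom left of the left panel. In the right panel the means of 8 of them are at most 1.05%, with bars up to 1.48% in TRAJ12. TRAJ13, with a mean of 1.56%, lies among the middle segments.

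V segments were next tested singly, with clones per V segment compared between C-proximal and other J segments within each library. Of 91 V segments with at least 50 clones edgeR called 73, or 80.2%, of which 39 (42.9%) were more and 34 (37.4%) less frequent with C-proximal J segments. Position ordered the calls. V segments were taken in 5 ranges of distance. All 7 V segments at 259 to 443 kb from Trac and 19 of 21 at 457 to 689 kb were less frequent. Of the 7 DESeq2 called 6, without TRAV3-4, which had 3 C-proximal clones in all and was lower in 3 of 4 libraries. At 457 to 689 kb TRAV15-2-DV6-2 and TRAV9-2 had log2 differences of -0.78 and -0.69 that edgeR did not call, and DESeq2 called the first of them lower. At 701 to 993 kb 9 of 19 were more and 6 less frequent, but DESeq2 called only 3 of these 9. At 1009 to 1304 kb 21 of 24 were more frequent and TRAV13D-3 was less frequent, and at 1357 to 1792 kb 9 of 20 were more frequent, of which DESeq2 called 4, and TRAV1 was less frequent. Over all 91 DESeq2 called 27 more and 34 less frequent. The median log2 difference ran from -2.99 through -2.19, 0.17 and 1.14 to 0.49 over these ranges, beside 0.19 over all 91. The zero of this scale depended on the scaling: DESeq2's size factors moved the median V segment by -0.31 and clones with 1 listed V segment moved it by 0.53. The median of the 701 to 993 kb range was then -0.13 and 0.77, and the other 4 ranges kept the sign of their median. Among called V segments 2 turned sign with DESeq2, neither of them called there, and 4 with 1 listed V segment (TRAV1, TRAV6-5, TRAV8-1 and TRAV16N), of which 3 were called in the opposite direction.

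The range of 1009 to 1304 kb made the largest gain in clones. It held 33.6% and 34.9% of C-proximal clones for WT and 34.5% and 36.5% for Tet2/3 DKO, against 16.4% and 17.2% of other clones for WT and 16.4% and 16.96% for Tet2/3 DKO. The range of 457 to 689 kb held 8.08% and 7.35% for WT and 8.14% and 8.09% for Tet2/3 DKO, against 26.8% and 27.2% of other clones for WT and 27.5% and 27.6% for Tet2/3 DKO. The middle range of 701 to 993 kb held 36.1% to 39.6% of C-proximal and 37.2% to 38.3% of other clones. The median V segment of a C-proximal clone lay 1058 and 1087 kb upstream of Trac for WT and 1058 and 1098 kb for Tet2/3 DKO, against 777 and 777 kb for WT and 759 and 777 kb for Tet2/3 DKO for other clones. Ranges and medians rest on the V segment listed first. Several V segments were listed for 60.6% to 61.9% of C-proximal clones and for 45.9% to 46.9% of all clones. Their positions are therefore uncertain for many clones, and more often for C-proximal ones.

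**Figure D3:**
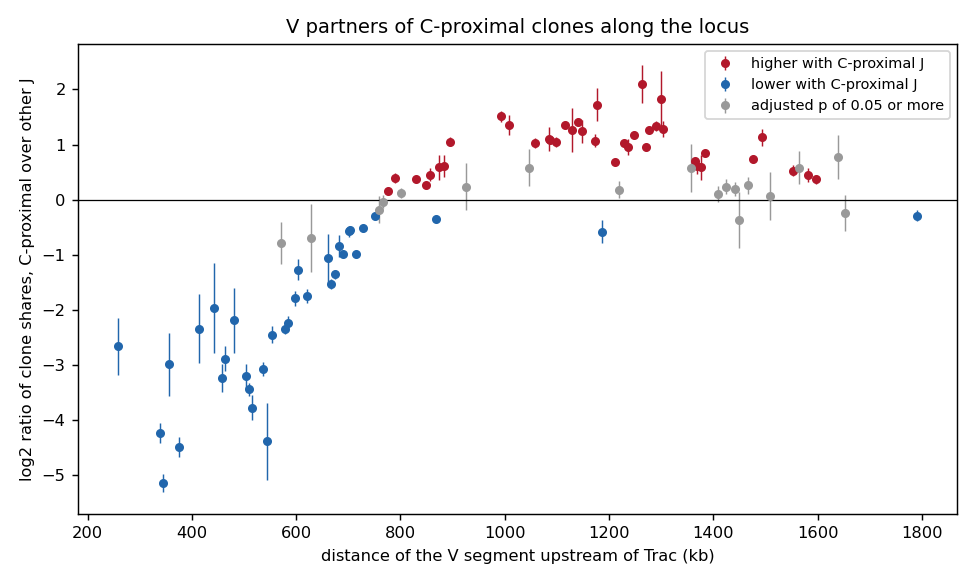
Log2 ratio of clone shares, C-proximal over other J segments, for each of the 91 tested V segments against its distance upstream of Trac in kb. Bars are SE of the edgeR fit over 4 libraries, and colours mark the calls. Values lie below 0 up to 689 kb, and the 4 highest lie between 993 and 1299 kb.

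The 4 largest falls were TRAV21/DV12, TRAV19, TRAV9-4 and TRDV1, all within 544 kb of Trac. TRAV21/DV12 took 0.0664% and 0.0931% of C-proximal clones for WT and 0.0408% and 0.0565% for Tet2/3 DKO, against 2.25% and 2.04% of other clones for WT and 2.31% and 2.48% for Tet2/3 DKO. The groups of clones did not come near each other in any library, and the fit put the share 35.4-fold lower (log2 -5.14 ± 0.16 SE, edgeR adjusted p = 1.49e-90). TRAV19 was 22.5-fold and TRDV1, a V segment that can also serve the TCRδ chain, 18.8-fold lower. TRAV9-4 was found in 2 C-proximal and 241 other clones, so the ratio of its shares, 0.0446, has an exact 95% interval of 0.00537 to 0.163.

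The 4 largest rises were TRAV15D-2-DV6D-2, TRAV9D-3, TRAV8D-2 and TRAV12N-2, which lie 993 to 1299 kb from Trac. TRAV12N-2 took 1.31% and 1.53% of C-proximal clones for WT and 1.78% and 1.40% for Tet2/3 DKO, against 0.443% and 0.584% of other clones for WT and 0.568% and 0.511% for Tet2/3 DKO, a 2.85-fold excess (edgeR adjusted p = 1.67e-37). TRAV8D-2 was 3.31-fold, TRAV9D-3 3.56-fold and TRAV15D-2-DV6D-2 4.27-fold more frequent, each in 4 of 4 libraries. The letters D and N mark the duplicated copies of the V cluster, which lie farther from Trac than the copies without a letter and are close to them in sequence. Several V segments were listed for 60.6% to 61.9% of C-proximal clones, for 94.4% of the clones of TRAV12N-2, and for every clone of TRAV9D-3 and TRAV15D-2-DV6D-2, so the position of these copies is uncertain. With clones of 1 listed V segment only, 53 of 63 V segments were called, 30 higher and 23 lower, and TRAV8D-2, which always stood alone in the list, remained higher.

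Out-of-frame clones were tested apart. Of the called V segments 62 could be tested among out-of-frame clones, 60 had the same sign there and 44 were called with the same sign. No V segment was called for a difference between genotypes in its preference for C-proximal J segments (0% of 91, 2 with an unadjusted p under 0.05, 0 by DESeq2).

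CDR3 length was compared among in-frame clones. C-proximal clones had a mean CDR3 of 13.23 and 13.29 amino acids for WT and 13.31 and 13.35 for Tet2/3 DKO, and other clones 13.41 and 13.41 for WT and 13.46 and 13.50 for Tet2/3 DKO. C-proximal CDR3s were shorter by 0.176 and 0.125 amino acids in WT and by 0.154 and 0.148 in Tet2/3 DKO, a difference in mean of -0.151 ± 0.0207 (SD, n = 4) that held in 4 of 4 libraries (exact sign-flip test, p = 0.125, the smallest possible). The C-proximal segments were not the shortest window, since TRAJ26 to TRAJ35 had means of 12.99 to 13.09 over the libraries, below the C-proximal mean of the same library in all 4, while the other 3 windows were longer. A length of 13 amino acids was the most frequent among C-proximal in-frame clones, with 36.1% against 29.9% of other clones, among which 14 amino acids was the most frequent with 30.1%, and 15 amino acids made up 9.58% against 13.5%.

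The shorter mean hid a wide range between segments that followed the length of the germline J part. TRAJ2, with the longest CDR3 part printed above, had a mean of 15.29 and 15.17 amino acids for WT and 15.23 and 15.26 for Tet2/3 DKO, the highest of the 43 TRAJ segments. TRAJ4 followed with 13.77 to 14.02, TRAJ5 with 13.69 to 13.88 and TRAJ6 with 13.61 to 13.70 over the libraries. TRAJ11 had 13.32 to 13.38, TRAJ7 13.12 to 13.26, TRAJ12 13.07 to 13.17 and TRAJ9 12.90 to 13.05. TRAJ13, with the shortest J part, had 12.77 and 12.79 for WT and 12.78 and 12.84 for Tet2/3 DKO. The ranges of TRAJ2 and TRAJ13 did not overlap with those of any other of the 9. TRAJ5 overlapped with TRAJ4 and, narrowly, with TRAJ6, and TRAJ7 overlapped with TRAJ12. TRAJ15, just outside the rule, had 13.18 to 13.25.

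Tet2/3 DKO C-proximal CDR3s were longer than WT ones by 0.0707 amino acids, with no overlap between genotypes (exact permutation test, p = 0.333, the smallest possible). Without WT 1 the difference was 0.0444 and the genotypes still kept this order. Clones with other TRAJ segments differed by 0.0710 amino acids in the same direction, also without overlap, so the difference between genotypes was not particular to the C-proximal segments. By segment the genotypes did not overlap in 4 of the 9, TRAJ4, TRAJ6, TRAJ7 and TRAJ9, each longer in Tet2/3 DKO, against 51.2% of the 43 TRAJ segments, also all longer in Tet2/3 DKO.

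**Figure D4:**
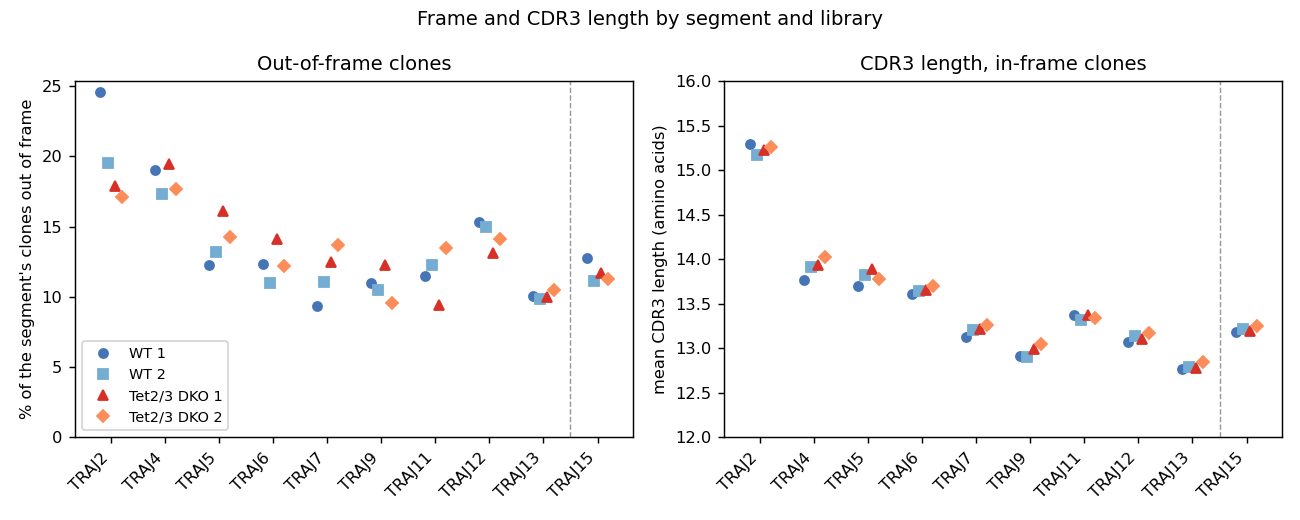
Share of each segment's clones that were out of frame (left, in %) and mean CDR3 length of its in-frame clones in amino acids (right, axis from 12 to 16), with 1 point per library and TRAJ15 right of the dashed line. TRAJ2 and TRAJ4 stand highest in the left panel, TRAJ2 alone in the right, and TRAJ13 is low in both.

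The mean number of inserted bases was 2.04 and 2.09 for WT and 2.07 and 2.08 for Tet2/3 DKO in C-proximal clones, and 2.32 and 2.32 for WT and 2.33 and 2.30 for Tet2/3 DKO in other clones. Bases called as palindromic copies of the J end (P bases, below) were counted with the J segment, so the 2 measures are not independent. Few inserted bases were not particular to the C-proximal segments, since TRAJ48 and up had 2.11 to 2.17 over the libraries. Its joins without any inserted base made up 28.5% to 29.5%, against 27.9% to 28.6% of C-proximal joins. Fewer bases were trimmed from the J end as well, 2.59 and 2.55 for WT and 2.54 and 2.48 for Tet2/3 DKO, against 3.15 and 3.16 for WT and 3.09 and 3.00 for Tet2/3 DKO. Trimming was lower in C-proximal clones than in each of the 4 other windows in every library, and no test was made. Among the 9 segments TRAJ5 had the fewest inserted bases, 1.26 to 1.46 over the libraries, and TRAJ13 the least trimming, 1.54 to 1.68 bases, while TRAJ4 was trimmed by 3.75 to 4.04 bases. TRAJ2 and TRAJ6, with means of 3.35 and 3.08, lay above and near the mean of 3.10 in other TRAJ segments. Low trimming was therefore not shared by all 9.

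Untrimmed J ends were often called with P bases, short palindromic copies of the segment end that form when the hairpin is opened. A run of 2 or more P bases was called before 34.3% and 32.8% of untrimmed C-proximal J ends for WT and 34.9% and 37.1% for Tet2/3 DKO, against 24.0% to 24.7% in other segments. TRAJ9, which starts with AGC, had the highest share of the 9 on average, with 52.2% and 56.0% for WT and 59.4% and 58.0% for Tet2/3 DKO. TRAJ4, TRAJ2, TRAJ13 and TRAJ6, with means of 20.5%, 21.6%, 24.9% and 25.99% over the libraries, lay near the share of other segments, so the excess came from the remaining members, and TRAJ48 and up came close to it with 30.1% to 31.0%. A short match can also arise by insertion or from V bases, which cannot be told apart from a P base here. The printed sequence stood in 74.7% (TRAJ7) to 92.2% (TRAJ6) of J ends called untrimmed and without P bases. P bases were not counted as inserted, and across windows fewer inserted bases went with more P bases. The C-proximal means were 2.07 inserted bases and 34.8%, and those of TRAJ37 to TRAJ47 were 2.42 and 20.9%. TRAJ9, with the most P bases, had 2.34 inserted bases and did not follow this order.

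Large clones, with at least 0.02% of the TCRα reads of their library, were counted to look for expanded C-proximal clones. There were 44 and 33 for WT and 26 and 40 for Tet2/3 DKO, out of 264 and 200 large clones for WT and 167 and 298 for Tet2/3 DKO. They held 11.2% and 8.34% of C-proximal reads for WT and 6.57% and 14.3% for Tet2/3 DKO. The lowest and the highest value both came from Tet2/3 DKO, and the difference of 0.691 percentage points was smaller than the spread in either genotype (exact permutation test, p = 1). It was -3.19 without Tet2/3 DKO 2 and 4.57 without Tet2/3 DKO 1. Other segments had 13.4% and 7.28% of their reads in large clones for WT and 6.77% and 20.1% for Tet2/3 DKO, and so the same order of the libraries within each genotype.

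TRAJ13 with 39 and TRAJ12 with 34 supplied 73 of the 143 large C-proximal clones. TRAJ13 had 12 and 10 for WT and 7 and 10 for Tet2/3 DKO, and TRAJ12 13 and 5 for WT and 6 and 10 for Tet2/3 DKO. TRAJ9 had 18 in all, TRAJ6 and TRAJ7 16 each, TRAJ4 8, TRAJ11 6, TRAJ2 4 and TRAJ5 2. The 4 large TRAJ2 clones were all found in Tet2/3 DKO libraries, 1 and 3, and the 2 large TRAJ5 clones in WT 2. Clones with at least 0.1% of reads numbered 2 in WT 1, 0 in WT 2, 0 in Tet2/3 DKO 1 and 2 in Tet2/3 DKO 2, and no C-proximal clone was among the 5 most abundant TCRα clones of its library.

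The largest C-proximal clone of all, TRAV15-1-DV6-1 with TRAJ13, had 808 reads in Tet2/3 DKO 2, or 0.281% of reads. The second in that library was TRAV6N-6 with TRAJ12 at 469 reads or 0.163%. In Tet2/3 DKO 1 the leading clones were TRAV7-2 with TRAJ6 at 0.0784% and TRAV14D-1 with TRAJ13 at 0.0749%. In WT 1 TRAV14D-1 with TRAJ13 led at 0.138%, before TRAV6D-7 with TRAJ12 at 0.107%, and in WT 2 the same TRAV14D-1 clone led at 0.0975%, before TRAV7-2 with TRAJ13 at 0.0845%. Both leading clones of Tet2/3 DKO 2 were larger than the leading clone of each other library.

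**Figure D5:**
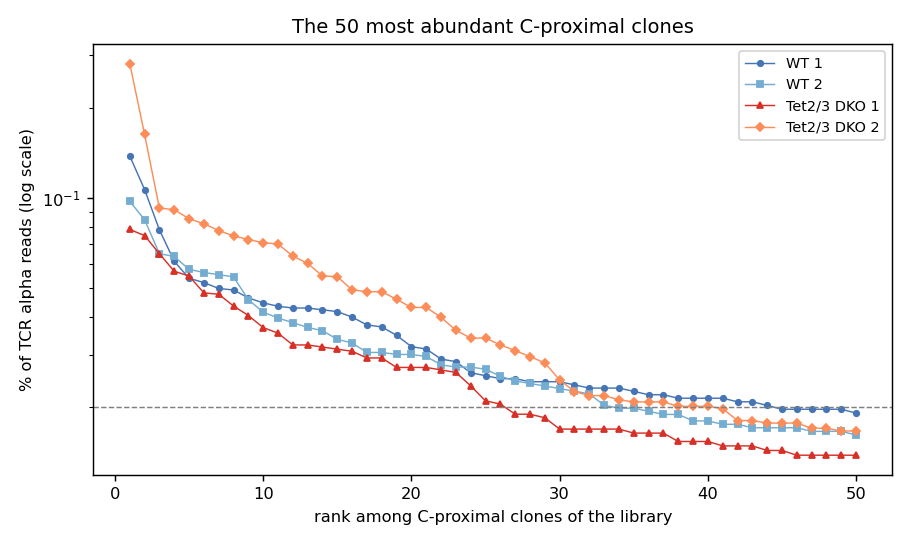
Share of TCRα reads (in %, log scale) of the 50 most abundant C-proximal clones of each library against their rank, with the limit of 0.02% as a dashed line. The first clone reaches 0.281% in Tet2/3 DKO 2 and 0.0784% to 0.138% in the other libraries.

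The leading clones of WT 1 and WT 2 were the same chain, and it was found in every library. With the D and N copies of a V segment merged, TRAV14D-1 joined to TRAJ13 without inserted bases had 253 and 232 reads for WT and 164 and 289 for Tet2/3 DKO, or 0.147% and 0.107% for WT and 0.0841% and 0.1004% for Tet2/3 DKO. Its J end was untrimmed, as the printed CDR3 shows. TRAV14N-3 joined to TRAJ13 with the same CDR3 had 0.0748% and 0.0887% for WT and 0.0579% and 0.0539% for Tet2/3 DKO. TRAV14N-3 joined to TRAJ7, also without inserted bases, had 0.0939% and 0.0785% for WT and 0.112% and 0.0949% for Tet2/3 DKO. TRAV7-2 joined to TRAJ9 had 0.0504% and 0.0577% for WT and 0.0508% and 0.0573% for Tet2/3 DKO.

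Of 21602 distinct C-proximal chains (V, J and CDR3 nucleotides) 242, or 1.12%, were found in all 4 libraries, against 1.20% of 115845 other chains. Chains without inserted bases made up 62.0% of these 242 and 21.1% of the C-proximal chains found in 1 library. All 242 were in frame, against 83.2% of those found in 1 library. Among other chains, those without inserted bases made up 58.9% of the chains in all 4 libraries and 18.2% of those in 1. Of these other chains 99.8% and 81.8% were in frame, so neither contrast was particular to the C-proximal segments. TRAJ12 supplied 97 of the 242, which was 2.27% of its chains, and TRAJ13 supplied 47, or 1.52%. TRAJ5 had 1 and TRAJ2 had 2, or 0.144% and 0.224% of their chains. Whether chains shared between libraries arose separately in each mouse was not tested.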

How the data were processed

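TCRα clone tables of 4 splenic CD4 libraries were used. TCRβ tables were not used here. Per the labels and methods the reads were demultiplexed with bcl2fastq 2.20.0, trimmed with fastp 0.21.0 and assembled into clones with MiXCR, with mm10 named as the build. The authors deposited a read count per clone and its fraction of the reads. Each deposited fraction equalled its count over the library total and served for that check alone.

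Each clone was assigned to the V and the J listed first, with the allele left off. No clone listed several J segments. A CDR3 with a frame shift was called out of frame. Clones without a covered CDR3 (2.00% to 3.41% of reads) stayed in totals of reads and clones and were left out of frame and length values. J sequences came from clones with an untrimmed J end, and positions from RefSeq (GRCm38.p6).

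Single values were compared by exact two-sided permutation over 6 label assignments or by exact sign flips over 16. Counts of reads or clones per segment were tested with edgeR 4.0.16 (quasi-likelihood, library totals, at least 10 counts per TRAJ or 50 per TRAV, the library as a block where classes of clones were compared, Benjamini-Hochberg adjustment over all segments, threshold 0.05). DESeq2 1.42.0 was an alternative. The edgeR fits of TRAJ clones by genotype and of V partners were tested on simulated data. The named segments are all 9 members and TRAJ15, the 2 most abundant C-proximal clones per library, and the 4 largest rises and falls among called V segments that had 1 direction in 4 libraries. Further chains found in all 4 libraries were chosen after their values were seen. Members and lists were chosen with earlier results of these data known. The labels number biological replicates, with 2 per genotype, and these limit every comparison.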

Additional observations from a re-analysis of the deposited data

How the results depend on the processing

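The comparisons rest on 2 libraries per genotype. Permutation and sign-flip tests could not pass 0.05, so their p-values say nothing about stability. Among the alternatives 3 values turned direction, each with a library left out. The alternative of 1 listed J segment is void, since no clone listed several. Leaving out 1 library gave a difference between genotypes of -0.218 to 0.452 percentage points in C-proximal share of reads (without WT 1 it was -0.218) and of -3.19 to 4.57 in reads of large clones (-0.724 without WT 2 and -3.19 without Tet2/3 DKO 2). TRAJ segments called by reads were 2, but 0 with DESeq2 and 0 to 1 when 1 library was left out. By clones they were 0, and 0 to 9 when 1 library was left out (9 without Tet2/3 DKO 1, 1 without Tet2/3 DKO 2). V partners called were 73, but 36 of 50 with the V copies merged and 45 of 73 among out-of-frame clones. Fewer segments were tested in both. DESeq2 called 61, with 27 higher and 34 lower against 39 and 34, and moved the higher calls most at 701 to 993 kb (3 against 9). In-frame against out-of-frame calls among the 9 were 5, and 4 to 6 with DESeq2 or with 1 library left out. Same-numbered libraries share only a number, and the deviations of replicate 1 correlated at 0.16 between genotypes. With the replicate number as a block 0 TRAJ segments were called by reads and 0 by clones. With 172506 to 287799 reads per library, segments of few clones such as TRAJ5 are the least precise.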
